A study of Rattus norvegicus with 3 samples.

Results

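The genes described here encode serum response factor (Srf), its coactivators of the myocardin family (Myocd, Mkl1 and Mkl2) and the MEF2 factors (Mef2a, Mef2c and Mef2d), followed through a map of HA-TET2 on rat DNA. A peak was taken to belong to a gene when the authors' annotation assigned it to that gene by symbol or placed it in an intron or exon of the gene. This gave 21 of the 35044 peaks deposited, 19 of 25521 in the Control list and 2 of 9523 in the Myocd-LSD1 list. The study used rat aortic smooth muscle cells (SMC) in 2 groups. Control was the WT line with 2 samples, and the other line, called Myocd-LSD1, had 1 sample. Cells of both groups received an adenovirus for HA-tagged TET2 (Adv-HA-TET2) for 24 h in growth medium with serum, and 500000 cells per assay went into CUT&Tag, where an antibody (here against HA) directs a transposase to cut and tag the DNA near the bound protein. All positions are therefore those of overexpressed TET2 in both groups, and no library without HA-TET2 was analysed here. The labels used here do not say how the Myocd-LSD1 line was made or whether it is a clone. A peak does not measure expression, so the label of smooth muscle could not be checked against marker transcripts. Control peaks were present at 5 of 5 smooth muscle marker genes and Myocd-LSD1 peaks at 2, beside 4 and 1 of 4 endothelial markers and 2 and 0 of 4 macrophage markers. Over all protein-coding genes, 47.6% had a peak in Control and 28.4% in Myocd-LSD1, and these small counts were not tested against those shares.

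SRF is a transcription factor of the MADS-box family that binds DNA at the CArG box. Myocardin, found mainly in cardiac and smooth muscle, binds SRF and drives the contractile genes of smooth muscle, while MRTF-A (Mkl1) and MRTF-B (Mkl2) are held in the cytoplasm by monomeric actin and enter the nucleus when actin polymerises. The MEF2 factors belong to the same MADS-box family, bind an A/T-rich element and are held in check by class IIa histone deacetylases. TET2 oxidises methylated cytosine, mostly at CG dinucleotides, as a step towards removing the methyl group.

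The sequences before the start sites of 4 of the genes are given because the peaks at 3 of these promoters, and the missing peak at that of Srf, carry much of what follows. RefSeq promoter sequences (build GRCr8) were matched for 5 of the 7 genes, with Mkl1 and Mkl2 under their current symbols Mrtfa and Mrtfb. Each line gives the 250 bases before 1 annotated start site, 5′ to 3′ on the strand of the gene. The peaks are on another build, rn6, and were not lined up with these bases. In Srf (chr9:21923826-21924075, plus strand) capitals mark the CArG boxes, and in Mef2a (chr1:130392163-130392412, minus strand) the MEF2 element. In Mkl1 (chr7:114594595-114594844, minus strand) and Mkl2 (chr10:1623703-1623952, plus strand) capitals mark every CG.
Srf: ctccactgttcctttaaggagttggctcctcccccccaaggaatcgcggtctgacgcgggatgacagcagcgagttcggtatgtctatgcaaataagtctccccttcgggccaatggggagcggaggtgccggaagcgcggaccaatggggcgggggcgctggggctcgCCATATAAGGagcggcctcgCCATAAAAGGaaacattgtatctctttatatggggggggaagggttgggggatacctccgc
Mef2a: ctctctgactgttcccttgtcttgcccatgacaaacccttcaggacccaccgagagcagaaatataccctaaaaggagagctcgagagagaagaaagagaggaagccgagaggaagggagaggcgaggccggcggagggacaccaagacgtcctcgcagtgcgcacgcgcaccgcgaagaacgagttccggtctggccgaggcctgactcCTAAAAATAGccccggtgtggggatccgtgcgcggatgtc
Mkl1: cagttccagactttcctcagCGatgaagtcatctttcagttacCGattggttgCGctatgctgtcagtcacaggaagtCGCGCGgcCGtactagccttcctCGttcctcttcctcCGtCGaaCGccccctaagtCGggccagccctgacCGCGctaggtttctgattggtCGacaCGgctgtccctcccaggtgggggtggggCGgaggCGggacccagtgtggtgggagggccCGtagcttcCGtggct
Mkl2: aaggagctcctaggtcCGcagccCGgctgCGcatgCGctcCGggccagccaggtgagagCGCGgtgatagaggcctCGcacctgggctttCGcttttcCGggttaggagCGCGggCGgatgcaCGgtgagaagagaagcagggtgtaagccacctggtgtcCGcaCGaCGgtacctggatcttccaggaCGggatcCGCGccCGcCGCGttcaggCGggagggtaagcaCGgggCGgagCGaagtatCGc

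The Srf window held 2 CArG boxes, CCATATAAGG from 81 to 72 bases and CCATAAAAGG from 61 to 52 bases before the start site. A CArG box was present in 1.497% of the 33469 promoter windows searched. The Mef2a window held 1 MEF2 element, CTAAAAATAG, from 40 to 31 bases before the start site, and such an element was present in 2.96% of windows. Both motifs read the same on either strand as patterns, and the matches did not overlap. All 5 windows were rich in CG, with 17 in Srf, 18 in Mef2d, 20 in Mef2a and Mkl1 and 28 in Mkl2, against a median of 5 over all windows. The Mkl2 window had more CG than most, since 94.0% of all windows had as many or fewer.

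HA-TET2 peaks were called at 6 of these genes in control SMC and at 1 in Myocd-LSD1 SMC, and the Control count depended on the length of its list. In Control, 6 of the 7 genes had a peak, all but Mef2c, where 47.6% of protein-coding genes had one. In Myocd-LSD1 only Mkl1 had a peak, 1 of 7, where 28.4% of protein-coding genes had one. With the Control list cut to its 9523 most significant peaks, the length of the Myocd-LSD1 list, 2 of the 7 genes had a Control peak and the Control peaks went from 19 to 4, beside 1 gene and 2 peaks in Myocd-LSD1. With peaks of a q-value of 0.01 or less in both lists, the genes with a peak numbered 5 in Control and 0 in Myocd-LSD1. At that threshold 22964 of the 25521 peaks in Control remained, and 6980 of the 9523 in Myocd-LSD1. The 47.6% and 28.4% are of the full lists, and no such share is given here for the cut or stricter lists. Of the 6 genes called in the full Control list, 1 was also called in the full Myocd-LSD1 list, where 50.5% of all such genes were. An overlap of 1 bp or more with a Myocd-LSD1 peak was found for 1 of the 19 Control peaks (5.26%, exact binomial 95% interval 0.133 to 26.0, for counting error only). Over all Control peaks that share was 22.0%, which lies within the interval. Of the 2 Myocd-LSD1 peaks 1 overlapped a Control peak, where 59.4% of all Myocd-LSD1 peaks did. The position in common was the promoter of Mkl1. Each group is represented by 1 list, so no value here has a replicate error and none was tested between the conditions.

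The lists differed in depth, and most of the peaks of these genes were low. A pile-up is the number of fragments that overlap at the summit of a peak, recovered here from the deposited fold enrichment and p-value. The uniform background under the Control peaks was 2.77 times that under the Myocd-LSD1 peaks. The median pile-up was 7 fragments in Control and 5 in Myocd-LSD1. The 19 Control peaks of these genes rested on 3 to 12 fragments with a median of 6. Of the 19, 14 rested on 7 or fewer, that is, at or below the median of all Control peaks. Over all Control peaks, 6.56% of those with 4 or fewer fragments and 14.1% of those with 5 to 7 overlapped a Myocd-LSD1 peak. Among promoter peaks of these heights the shares were 16.0% and 26.2%. Among all Control peaks with the same annotation class and the same pile-up as each of the 19, a mean of 14.8% overlapped a Myocd-LSD1 peak, which corresponds to 2.81 peaks of 19. That mean is itself an overlap between the same 2 lists, so depth and a difference between the groups across the genome cannot be told apart in it.

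**Figure D1:**
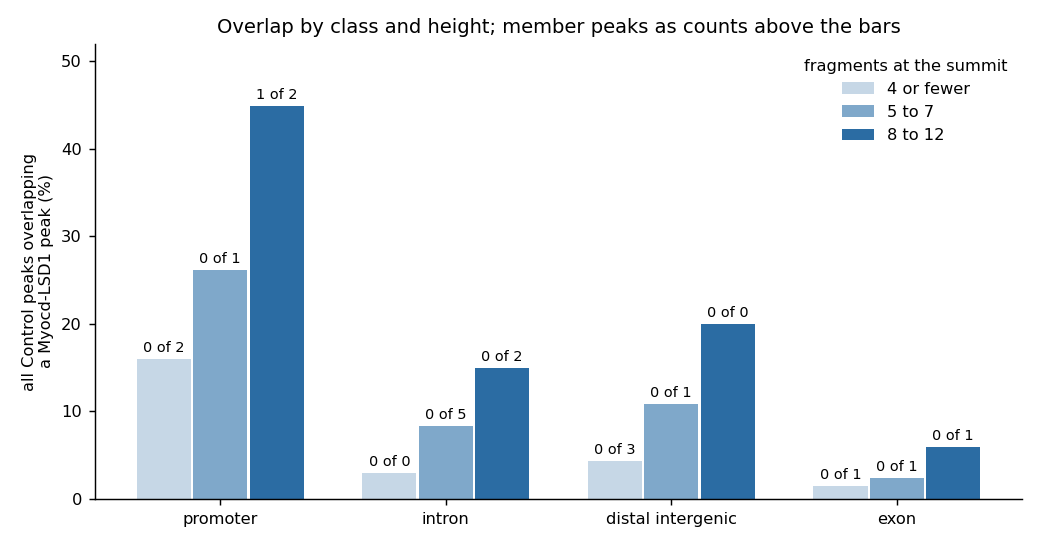
Bars give the percentage of all Control peaks that overlap a Myocd-LSD1 peak, by annotation class and by fragments at the summit, and the counts above them give the overlapping peaks of the SRF, myocardin family and MEF2 genes. The only overlapping peak of these genes is 1 of 2 promoter peaks with 8 to 12 fragments, the class where the share over all peaks is the highest of those drawn, at 44.9%.

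Mkl1, the gene of MRTF-A, had the highest single peak of the 7 genes and was the only one with peaks in both lists. It lies on the minus strand of chromosome 7 (rn6, 122233196 to 122403661, 170.5 kb). Its Control promoter peak (122403780 to 122404115) began 119 bp upstream of the outermost start site and had a fold enrichment of 7.59, a −log10 q-value of 8.46 and a pile-up of 12 fragments. This was the highest peak of all 7 genes in either list, at percentile 83.8 of fold among Control peaks. The Myocd-LSD1 promoter peak (122403822 to 122404037) began 161 bp upstream and had a fold of 3.93, a −log10 q-value of 1.79 and a pile-up of 4, at percentile 32.1 of its own list. Folds of lists called separately are not levels on a common scale, and only the ranks within each list are read here.

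The Mkl1 promoter peaks were nested, with all 216 bp of the Myocd-LSD1 peak inside the 336 bp of the Control peak. Their summits, at 122403873 in Control and 122403871 in Myocd-LSD1, lay 2 bp apart. Over the 5623 Control peaks with a Myocd-LSD1 counterpart the median distance between summits was 79 bp, and 6.08% had summits within 2 bp. Of all Control promoter peaks with 12 fragments 55.1% overlapped a Myocd-LSD1 peak, and of all Myocd-LSD1 promoter peaks with 4 fragments 55.4% overlapped a Control peak. The q-value of the Myocd-LSD1 peak was 0.0162, so at a threshold of 0.01 neither it nor any other Myocd-LSD1 peak of these genes remained.

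Within the Mkl1 gene, the lists held peaks at different places. Control had 5 intron peaks. A pair (122368920 to 122369286 and 122370999 to 122371194) lay 1.7 kb apart in intron 1 of 13, with folds of 7.003 and 4.64 on 11 and 7 fragments. A second pair (122255112 to 122255330 and 122255824 to 122256115) was 493 bp apart in intron 2 of 12 of a shorter transcript, with folds of 3.40 and 6.23 on 5 and 10 fragments. The fifth (122309904 to 122310299, intron 1 of 12) had a fold of 3.92 on 6 fragments. None of the 5 had a Myocd-LSD1 counterpart, where 14.4% of all Control intron peaks had one. Among all Control intron peaks of the same pile-up as these 5, between 6.78% and 16.5% had one. The stronger peak of each pair was above the median fold of the Control list, at percentiles 78.5 and 68.5, and the other 3 were below it. Myocd-LSD1 had 1 intron peak of its own (122378455 to 122378811, intron 1 of 13, fold 3.42, 3 fragments, q-value 0.0390). It lay 7.3 kb from the nearest Control peak. Among all Myocd-LSD1 intron peaks with 3 fragments, 34.6% overlapped a Control peak.

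**Figure D2:**
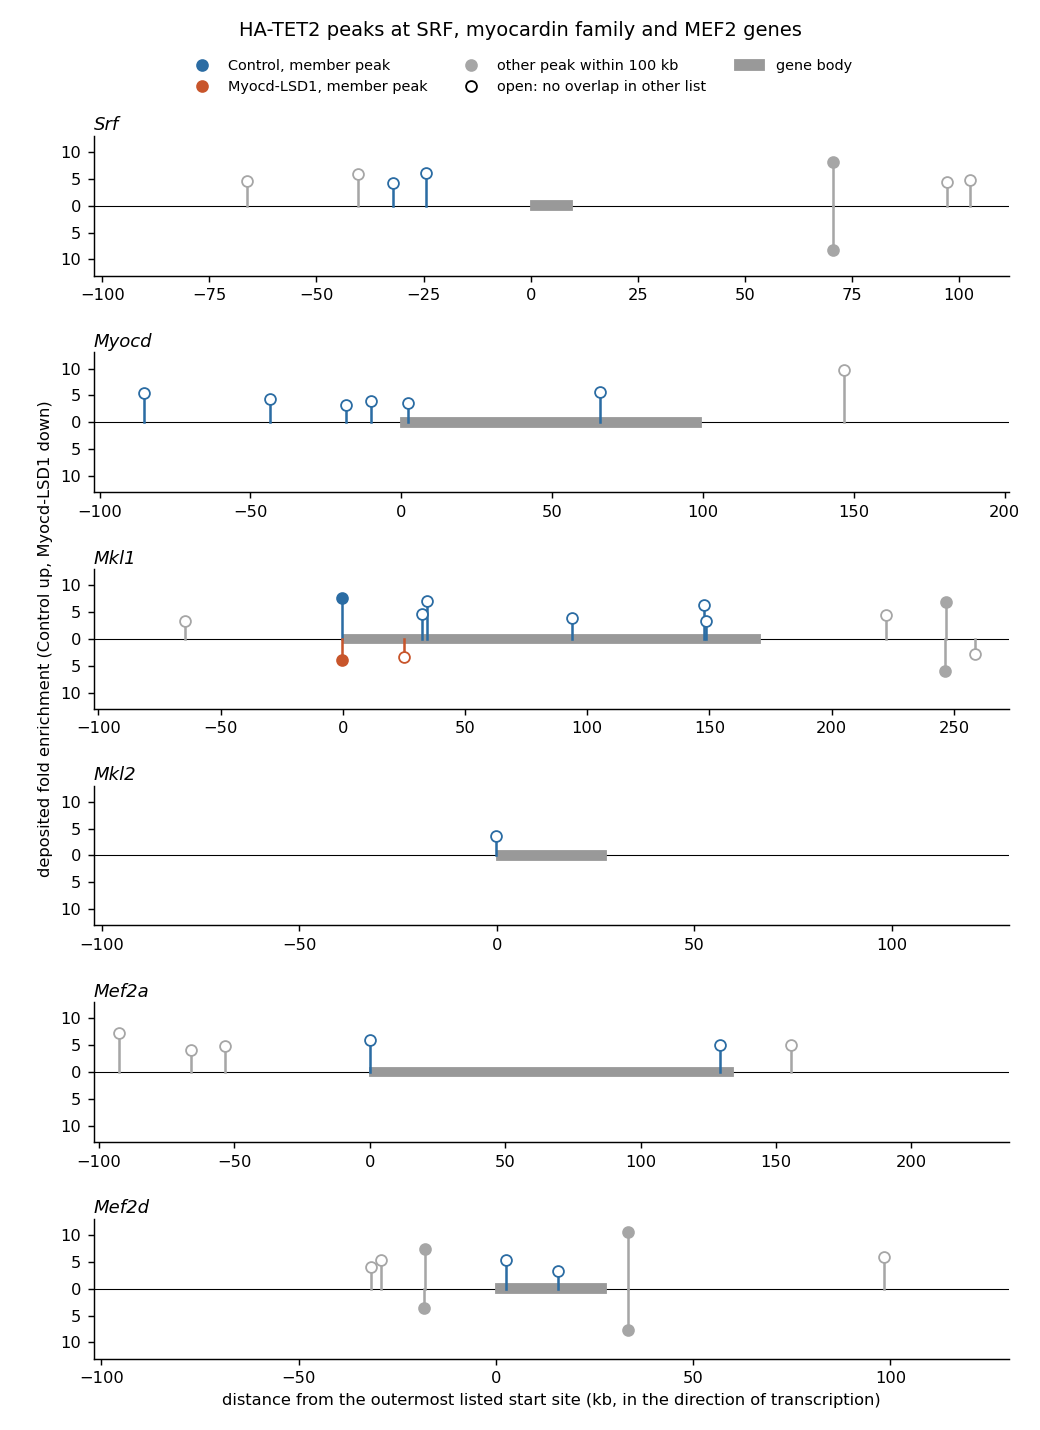
Peaks around 6 of the genes are drawn by distance in kb from the outermost listed start site, with deposited fold enrichment upwards for Control and downwards for Myocd-LSD1 (separate scales in effect, since the lists were called separately). Coloured symbols are peaks of the genes, grey symbols other peaks within 100 kb, filled symbols those that overlap a peak of the other list, and grey bars the gene bodies. Mkl1 is the only gene with a filled coloured symbol, and Mef2d has filled grey symbols on both sides of it.

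Myocd, the gene of myocardin itself, had as many Control peaks as Mkl1, on 3 to 7 fragments each, and no Myocd-LSD1 peak. Of the protein-coding genes with a Control peak, 5.74% had 6 or more, the number found at Myocd and at Mkl1. That share is over genes of all lengths and was not matched to long genes such as Myocd (99.4 kb) and Mkl1 (170.5 kb). The gene lies on the minus strand of chromosome 10 (51682053 to 51781458, 99.4 kb). Its promoter peak (51779148 to 51779319) began 162 bp upstream of the start site of NM_182667.2, which is within the longer transcript listed. It had a fold of 3.52 on 4 fragments and stood at percentile 8.4 of the Control list. Of all Control promoter peaks with 4 fragments 17.0% had a Myocd-LSD1 counterpart.

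Upstream of Myocd, 4 intergenic Control peaks formed a chain from 9.9 to 85.3 kb before the start site. In order of distance they had folds of 3.99, 3.25, 4.26 and 5.41 on 4, 3, 4 and 6 fragments. The farthest was thus the highest of the 4, at percentile 53.5. Another Control peak (51715429 to 51715688, fold 5.59, percentile 57.4, 7 fragments) lay in intron 5 of 13 of Myocd but was assigned by the authors to the neighbouring Arhgap44, a GTPase-activating protein gene, 45.9 kb from that start site. None of these 5 had a counterpart, where 18.9% of all Control distal intergenic peaks and 14.4% of intron peaks had one. Among all Control peaks of the same class and pile-up as these 5, between 2.28% and 10.5% overlapped a Myocd-LSD1 peak. The Myocd-LSD1 peak nearest to any of the 6 was 82.2 kb from the farthest upstream one. No peak of either list was annotated to a Myocd exon.

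Srf had no peak in or next to the gene in either list. The gene is short (chromosome 9, plus strand, 16737637 to 16747226, 9.6 kb). The 2 Control peaks assigned to it lay upstream in exons of Ptk7, which encodes a receptor-like pseudokinase of planar cell polarity. The nearer (16712826 to 16713394, exon 8 of 20) was 24.2 kb from the Srf start site, with a fold of 6.01 on 11 fragments, and the farther (16705447 to 16705651, exon 6 of 20) was 32.0 kb away, with a fold of 4.16 on 7 fragments. Neither had a Myocd-LSD1 counterpart, where 8.52% of all Control exon peaks had one. Among all Control exon peaks with 11 and with 7 fragments the shares were 6.77% and 2.80%. The authors assigned 2 further Control peaks, in introns of Ptk7, to Ptk7 itself, so the pair counted for Srf belonged to a run of 4 along the neighbouring gene. At the Srf promoter, with its CArG boxes, no peak was called in either list. Over all protein-coding genes, 27.3% had a promoter peak in Control and 16.9% in Myocd-LSD1.

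Mkl2, the gene of MRTF-B, had 1 Control peak and no Myocd-LSD1 peak. The peak (chromosome 10, 1245384 to 1245580) ended 105 bp upstream of the only start site listed for the gene. It had a fold of 3.69 on 4 fragments, at percentile 9.8 of the Control list, a height like that of the Myocd promoter peak and well under that of Mkl1. The share of Control promoter peaks with 4 fragments that had a counterpart is the 17.0% given for Myocd. No other peak of either list lay within 100 kb of the gene as listed (1245685 to 1273269, plus strand), and the nearest Myocd-LSD1 peak was 791.9 kb away. With its 28 CG, the Mkl2 window printed above had the most of the 5 promoters, and its peak was among the lowest. The window was not lined up with the peak, and no relation between CG and peak height was tested.

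Among the MEF2 genes, Mef2a and Mef2d had Control peaks and Mef2c had none, and no peak of the Myocd-LSD1 list belonged to any of them. Mef2a (chromosome 1, minus strand, 128207715 to 128341678, 134.0 kb) had the widest peak of all 7 genes, 716 bp across the start site (128341401 to 128342116), with a fold of 5.90 on 7 fragments. Of all Control promoter peaks with 7 fragments 29.8% had a Myocd-LSD1 counterpart. A second Control peak (128212007 to 128212319, fold 5.08, 6 fragments) lay at the other end of the gene, in intron 11 of 11. The authors assigned it to the neighbouring gene Lysmd4, whose start site was 12.8 kb away. The nearest Myocd-LSD1 peak to either was 262.0 kb off.

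Mef2d (chromosome 2, plus strand, 187513315 to 187541285, 28.0 kb) had a Control peak 2.3 kb downstream of its start site (187515643 to 187515972, annotated as promoter, fold 5.41, 11 fragments). By class and fragments alone, this unmatched promoter site had the highest share with a counterpart, 51.2% of all Control promoter peaks with 11 fragments. That share was not matched for distance, and the Mef2d peak was annotated in the outer part of the promoter, at 2 to 3 kb. Control promoter peaks annotated at 1 kb or less had a counterpart in 44.5% of cases, beside 37.8% for the whole class. Whether the absent counterpart at Mef2d was unusual for its distance was not tested. The other Control peak (187528890 to 187529109, exon 6 of 13) had a fold of 3.22 on 3 fragments, the lowest fold of the 19. For exon peaks with 3 fragments the share with a counterpart was 0.746%.

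Mef2c, the MEF2 gene with the best known role in heart and vessel development, had no peak in either list, and neither list gave its bounds. Of the 6 genes to each side of it in the RefSeq order (GRCr8), the microRNA gene Mir9-2 alone had an assigned peak, 8031 bp upstream of it in Myocd-LSD1 (chromosome 2, 11876354 to 11876640, fold 3.75, 3 fragments). No Control peak overlapped that site.

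Control promoter peaks were thus present at Mkl1, Mkl2, Myocd, Mef2a and Mef2d, 5 of 7 genes, where 27.3% of protein-coding genes had one. The count went to 3 at a q-value of 0.01 or less and to 1 with the Control list cut to 9523 peaks, the same number as in Myocd-LSD1. The 27.3% is of the full Control list, and no such share is given here for the shorter lists. Of the 5, 1 had a Myocd-LSD1 promoter peak, where 46.3% of all protein-coding genes with a Control promoter peak did. At the level of peaks, 37.8% of all Control promoter peaks had a counterpart. By class, the 19 Control peaks comprised 5 in promoters, 7 in introns, 4 in distal intergenic sequence and 3 in exons. Promoters made up 26.3% of them (interval 9.15 to 51.2), and 30.3% of all Control peaks. Introns made up 36.8% (16.3 to 61.6) against 29.8%, and exons 15.8% (3.38 to 39.6) against 10.7%. Each interval holds the share over all peaks. The widths ran from 172 to 716 bp with a median of 292 bp, and the median over all Control peaks was 315 bp. In fold, 11 of the 19 were below the median of the Control list, as were both Myocd-LSD1 peaks in theirs.

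**Figure D3:**
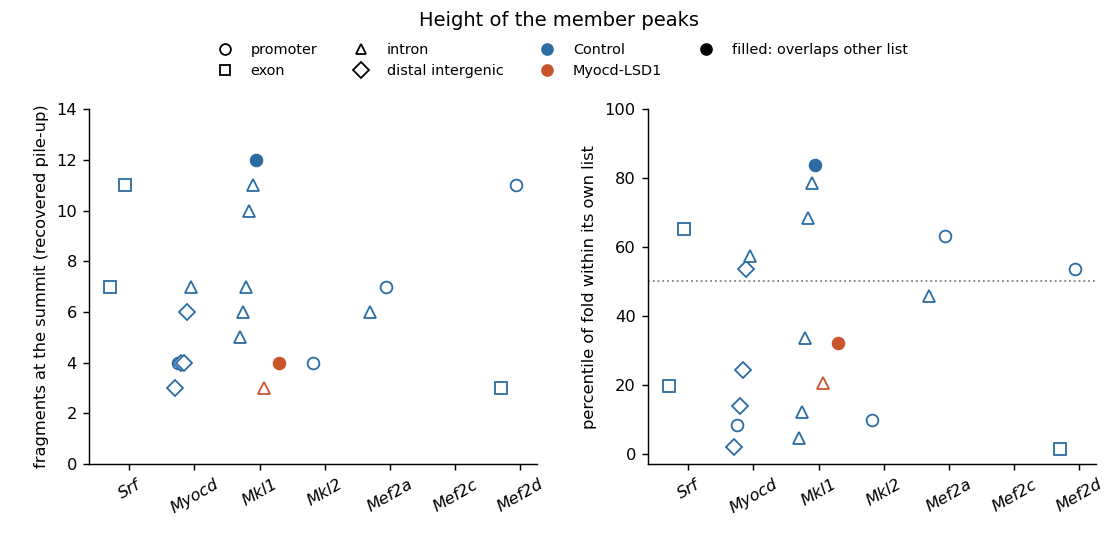
Each symbol is 1 peak of the gene named below it, by fragments at the summit on the left and by percentile of fold within its own list on the right, with shapes for annotation class and filled symbols for peaks that overlap the other list. The Control promoter peak of Mkl1 stands highest in both panels, at 12 fragments and percentile 83.8, and Mef2c has no symbol.

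The surroundings of these genes did hold sites common to both lists. Within 100 kb of the 6 genes with listed bounds there were 18 other Control peaks, and 4 of them overlapped a Myocd-LSD1 peak (22.2%, interval 6.41 to 47.6), beside the 22.0% of all Control peaks. Mef2d lay between shared sites. On its downstream side, 5.0 kb past the end of the gene, was a Control peak (187546290 to 187547060) with a fold of 10.5 on 23 fragments, and the Myocd-LSD1 peak on it (187546493 to 187546928) had a fold of 7.75 on 12 fragments. The annotation gave this site to an uncharacterised locus, LOC102547113, whose start site was 17.7 kb away. On the upstream side, 17.7 kb before Mef2d, a Control peak of fold 7.36 on 14 fragments met a Myocd-LSD1 peak of fold 3.62 on 4 fragments. Beyond Mkl1 the shared site was the promoter of Adsl, the adenylosuccinate lyase gene (folds 6.84 and 5.90). Beyond Srf it was a promoter peak that the authors assigned to Rps19 (folds 8.08 and 8.32), a ribosomal protein gene. Around Myocd, Mkl2 and Mef2a no shared site lay within 100 kb, where the other Control peaks numbered only 1, 0 and 4.

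Genes that act with these factors were then counted by the same rule, in 5 lists of 82 genes in all. The SRF partner factors, mostly DNA-binding and LIM proteins that act with SRF at promoters, had Control peaks at 10 of 15 genes (66.7%) and Myocd-LSD1 peaks at 4 (26.7%). The shares over all protein-coding genes were 47.6% and 28.4%. At promoters, 7 of the 15 partner genes had a Control peak, beside 27.3% of all protein-coding genes. Of the 7, 1 had a promoter peak in both lists, beside 46.3% of all protein-coding genes with a Control promoter peak. That gene was Fhl2, a LIM-only cofactor that competes with MRTF-A for SRF (folds 9.46 and 3.72, on 16 and 3 fragments). Elk4, a ternary complex factor that acts with SRF at serum-responsive genes, had a Control promoter peak of fold 6.07. Csrp2, a smooth muscle LIM protein, had one of 6.16, and neither gene had a Myocd-LSD1 peak.

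The genes that carry the actin signal to the myocardin family had peaks at 17 of 23 in Control (73.9%) and 16 in Myocd-LSD1 (69.6%), with 14 in both. Promoter peaks were present at 10 in Control (43.5%, beside 27.3% of all protein-coding genes) and at 13 in Myocd-LSD1 (56.5%, beside 16.9%), with 7 in both. Among the last were Lmna, the gene of the lamins A and C of the nuclear envelope (folds 13.1 and 13.9), Limk1, a kinase that inactivates cofilin (9.80 and 8.82), Rhob, a small GTPase (8.75 and 9.18), and Rock2, a kinase that promotes actomyosin contraction (6.84 and 5.66). The related kinase gene Rock1 (7.07) and the profilin gene Pfn1 (4.76) had a promoter peak in Control and no Myocd-LSD1 peak.

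Regulators of MEF2 had Control peaks at 17 of 21 genes (81.0%) and Myocd-LSD1 peaks at 13 (61.9%). The shares over all protein-coding genes were 47.6% and 28.4%. Promoter peaks were in both lists at Carm1, an arginine methyltransferase and MEF2 coactivator (folds 14.9 and 14.2), Hdac4, a class IIa deacetylase that represses MEF2 (12.6 and 9.73), and the kinase genes Mapk7 (ERK5; 9.38 and 9.71) and Mapk14 (p38α; 9.19 and 5.55). Hdac7 (5.98) and Hdac3 (3.90) had a promoter peak in Control and no Myocd-LSD1 peak. Mef2b, the MEF2 gene counted in this list, had no peak in either.

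Target genes of these factors had peaks in both lists as well. Among the SRF targets, Control peaks were present at 14 of 15 genes (93.3%) and Myocd-LSD1 peaks at 9 of 15. For these and the MEF2 targets below, the shares over all protein-coding genes were 47.6% and 28.4%. Promoter peaks in both were found at the early response gene Fosb (folds 16.5 and 7.20) and the cytoskeletal genes Vcl (10.8 and 8.47), Myh9 (non-muscle myosin heavy chain; 10.2 and 8.22) and Zyx (8.38 and 6.03). Tpm4 (tropomyosin; 5.26) and Egr3 (4.48) had a promoter peak in Control and no Myocd-LSD1 peak. Of the MEF2 targets, 6 of 8 had a peak in each list. Both lists had a peak at 5 of the 6 with a Control peak, beside 50.5% of all genes with a Control peak. Promoter peaks in both were found at Klf6 (8.90 and 7.82), Jun (7.17 and 3.60), Nr4a2 (5.68 and 2.82) and Bdnf (3.20 and 4.28). These Control and Myocd-LSD1 peaks rested on 15 and 11 fragments at Klf6 and 14 and 4 at Jun. At Nr4a2 they rested on 7 and 2, and at Bdnf on 3 and 4. Klf2, a flow-responsive factor best known from endothelium, had a Control promoter peak of fold 3.72 and no Myocd-LSD1 peak. The lists differ in gene length and in height of peaks, and no difference between a list and the 7 factor genes was tested.

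**Figure D4:**
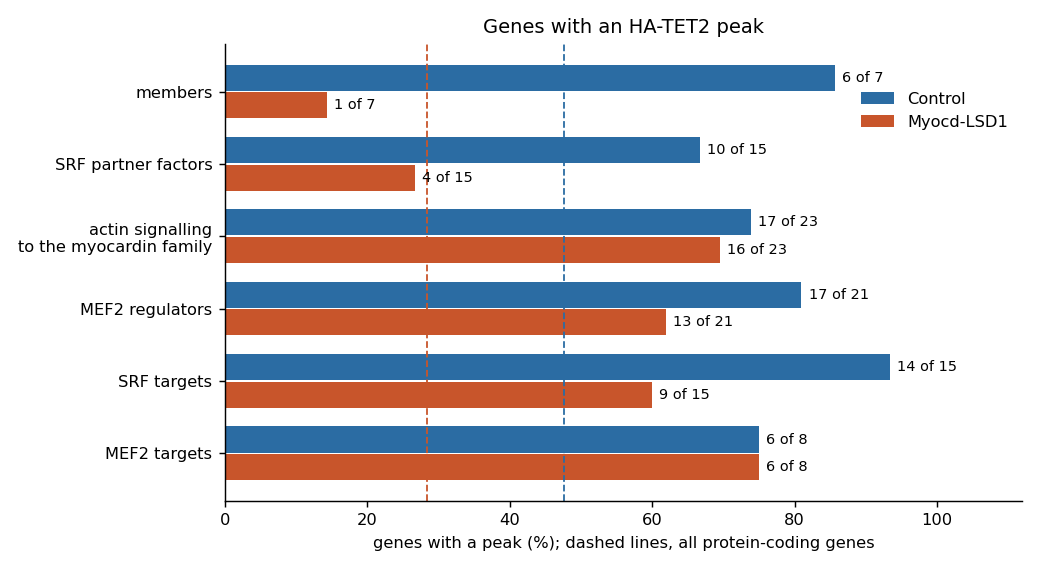
Bars give the percentage of genes in each list with a peak in Control (blue) and Myocd-LSD1 (orange), counts stand beside them, and the dashed lines mark all protein-coding genes at 47.6% and 28.4%. The 7 factor genes (members) have the lowest Myocd-LSD1 bar, 1 of 7, and the MEF2 targets have bars of equal length, 6 of 8 in each list and 5 of 8 in both.

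The promoter pattern of Mkl1, high in the Control list and low in the Myocd-LSD1 list, was compared with that of 2669 genes with promoter peaks in both. By distance between percentiles of fold over the 2 lists, the nearest reported here were Shfm1 (percentiles 83.7 and 30.8) and Prpf4b (85.6 and 32.1). With 2 lists this likeness says only that the ranks were close.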

How the data were processed

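The CUT&Tag samples (2 Control, 1 Myocd-LSD1) were grouped by title. The submitters' processing notes name build rn6 and the tools Bowtie2, MACS2, deepTools and ChIPseeker, without versions. The deposited data were 2 annotated peak lists. A common list is named for both Control samples, and it is not stated whether it pools their reads.

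The deposited fold enrichment is a ratio per peak, used to describe and rank peaks within a list. The −log10 p-value and −log10 q-value of each peak are as deposited, and the lowest of the latter (1.32 in Control, 1.31 in Myocd-LSD1) imply a q-value of 0.05 as the threshold. The deposited score repeats the q-value and was not used further. Classes and assignments are those deposited, and a promoter reaches 3 kb up- and downstream of its start site. Starts are counted from 1 here. The header line of each list holds the name of peak 1 without values, and 45 and 23 peak numbers are missing, 0 of them between peaks of 1 chromosome.

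Overlap was at least 1 bp. Intervals are exact binomial (Clopper-Pearson) at 95%. Pile-ups k came from fold = (k + 1)/(λ + 1) and from the p-value as a Poisson tail above k with mean λ, the formulas of MACS2, with a misfit in −log10 p under 0.002 or under 0.1 of the next whole number, for 99.9% and 99.8% of peaks. Amplified fragments are not independent molecules. Overlap and pile-up steps were tested on simulated data or against bedtools. Of 14740 assigned symbols, 11949 (81.1%) matched RefSeq (GRCr8), and shares of genes are over 20949 protein-coding genes with non-provisional symbols, promoter windows over 33469 sequences. The members, lists and naming rules were chosen with earlier results of these data known. All peaks of the 7 genes are described. Of each list up to 4 genes with promoter peaks in both lists, and up to 2 with a Control promoter peak and no Myocd-LSD1 peak, are named by Control fold. A gene that the naming rules choose is not reported here. Python 3.11.15, pandas 2.3.3, numpy 2.4.6, scipy 1.17.1 and matplotlib 3.10.9 were used.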

Additional observations from a re-analysis of the deposited data

How the results depend on the processing

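The 8 counts on these genes were recomputed under other thresholds, list lengths, gene assignments, overlaps and promoter widths, giving 38 values, of which 26 stayed within 1.5 times the reported count and 12 did not. With peaks of a q-value of 0.01 or less, the genes with a Control promoter peak went from 5 to 3, and the Myocd-LSD1 peaks, the genes with a Myocd-LSD1 peak or promoter peak, and the overlapping peaks of either list all went to 0. With Control cut to the 9523 most significant peaks, the Control peaks went from 19 to 4, the genes with a Control peak from 6 to 2 and those with a Control promoter peak from 5 to 1. For these shorter lists no share over all genes is given here beside the counts. Counting every peak in or within 10 kb of the gene bodies, the genes with a Myocd-LSD1 peak went from 1 to 2 and the overlapping peaks of each list from 1 to 2, since the shared site past Mef2d was then included. The overlap at the Mkl1 promoter was found with a reciprocal overlap of 50% and with gaps of up to 1 kb, which added no other site. No paired analysis was possible because each group has 1 peak list, and leaving out a replicate was not possible for the same reason. The 18 Control peaks without a counterpart rested on 3 to 11 fragments, and the part of depth in the absent calls was not tested.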
